A study of Mus musculus with 4 samples.

Results

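The 38 genes described here are immediate-early and dissociation response genes, chosen by name from a list: Fos, Jun and Egr transcription factors, the feedback inhibitors that are induced with them, and further genes that respond within minutes to a signal or to tissue handling. All 38 were found among the 12800 genes of a single-cell RNA-seq table of mouse microglia, the resident macrophages of the brain. Transcripts were counted as unique molecular identifiers (UMIs), each standing for 1 captured molecule. The table holds 3023 cells in 4 libraries, and the authors sorted those cells into 8 clusters.

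Immediate-early genes are transcribed from promoters that are already open, through factors that are present before the signal and need only to be activated, so they rise without new protein synthesis. MAP kinases act through serum response factor and CREB, and NF-kB is released from its inhibitor. Many of the induced proteins then shut the response off: dual-specificity phosphatases remove phosphate from MAP kinases, Nfkbia holds NF-kB in the cytoplasm, and Zfp36 proteins speed the decay of short-lived mRNAs. In microglia these genes are known to be induced by enzymatic dissociation and sorting as well as by signals in the living brain.

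All mice were male and aged 12 to 14 months. The control-diet wild-type library came from Trem2 +/+ mice kept for 12 weeks on control diet. The other 3 libraries came from Trem2 +/+, Trem2 +/- and Trem2 -/- mice fed 0.2% cuprizone, a chelator of copper under which oligodendrocytes die and myelin is lost, for 12 weeks; they are called the cuprizone wild type, the heterozygote and the knockout. Every brain was dissociated with the same kit, and 30000 live CD11b+ CD45low cells were sorted from each of 2 hemibrains and pooled. There was thus 1 library per group and no replicate: no test was run between groups, and every interval given is a 95% interval that covers counting error only. Values were summed over 6 of the authors' clusters (01, 02, 04, 05, 06 and 08), because clusters 03 and 07 are led by genes of other cell types.

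The pooled clusters held 479, 663, 695 and 753 cells in the control-diet wild type, cuprizone wild type, heterozygote and knockout, with 3638474 to 6552603 UMIs per library and medians of 4717 to 6849 UMIs per cell. Trem2 (chr17:48346401-48354147, GRCm38) stood at 3132, 2939, 1763 and 520 CPM (UMIs of a gene scaled to a common library total) in that order, lowest in the knockout as its label says. The 13 microglia markers summed to between 24704 and 30448 CPM, and none was at 0 in any library. The 8 neutrophil markers summed to 0.55, 48.6, 1778 and 649 CPM, with 7 of the 8 at 0 in the control-diet wild type. Of the 29 pooled cells with at least 7 neutrophil marker UMIs, 24 were in the heterozygote library. Without these cells the summed share and the counts of members in the library comparisons, given below, stayed within their counting error or at the same count. Libraries shared 8 cell barcodes (16 of 3023 cells), and leaving those cells out changed no count.

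The clearest pattern was by cluster and not by library. The 38 genes together made up 5.86% of all UMIs in cluster 01, 3.92% in cluster 05, 3.59% in cluster 02, 2.61% in cluster 08, 2.38% in cluster 04 and 1.26% in cluster 06. The highest pooled cluster was therefore 4.65-fold above the lowest. Summed by library, the same genes made up 3.55% of UMIs in the control-diet wild type, 3.28% in the cuprizone wild type, 3.19% in the heterozygote and 3.39% in the knockout. The highest library was 1.11-fold above the lowest. Outside the pool, cluster 03 stood at 1.01% and cluster 07 at 3.72%.

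**Figure D1:**
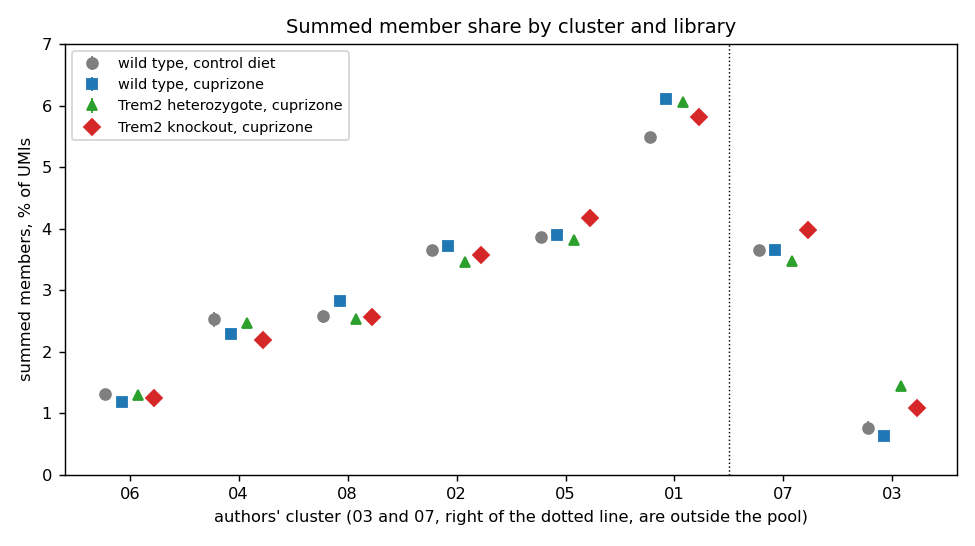
Summed UMIs of the 38 genes as a percent of all UMIs (vertical axis) in each of the authors' clusters (horizontal axis), 1 point per library with exact 95% counting intervals, most of them smaller than the symbol. In all 4 libraries cluster 01 lies above 5.4% and cluster 06 below 1.4%, and the libraries lie close together within each pooled cluster.

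Cluster 01 held 111, 94, 108 and 122 cells of the control-diet wild type, cuprizone wild type, heterozygote and knockout. In those libraries the 38 genes took 5.49%, 6.11%, 6.06% and 5.82% of its UMIs, against 3.31%, 3.12%, 3.01% and 3.22% in the other 5 pooled clusters. The ratios were 1.66 (1.64 to 1.68), 1.96 (1.93 to 1.99), 2.01 (1.99 to 2.04) and 1.81 (1.78 to 1.83). Cluster 06, with 134, 122, 104 and 134 cells, was described after it had been seen to be lowest: its shares were 1.31%, 1.19%, 1.30% and 1.249%, which were 2.99-fold, 2.91-fold, 2.55-fold and 2.85-fold below the other 5 clusters. The authors made these clusters from the same cells, so these ratios are descriptions and not tests.

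Clusters 01 and 06 were of like depth, with medians of 3387 and 3541 UMIs per cell, yet they lay at the opposite ends of the range. Cluster 01 exceeded cluster 06 by 4.21-fold (4.09 to 4.33) in the control-diet wild type, 5.15-fold (5.00 to 5.31) in the cuprizone wild type, 4.66-fold (4.52 to 4.80) in the heterozygote and 4.66-fold (4.53 to 4.79) in the knockout. Both clusters carried the microglia markers, which summed to 34058 CPM in cluster 01 and 37085 in cluster 06. Mitochondrial transcripts made up 0.95% of UMIs in cluster 01 and 1.20% in cluster 06, between 1.05% and 1.65% in the other 4. Ribosomal protein transcripts were lowest in cluster 01 (9.17%) and stood at 12.5% in cluster 06 and 16.6% in cluster 08. Heat shock transcripts were highest in cluster 01 (0.34%), against 0.24% to 0.29% in the other 5. The part of these measures in the cluster difference was not tested.

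The same order held for single cells at equal depth. Each cell was thinned at random to 2915 UMIs, and cells with fewer were left out (111 in cluster 01, 127 in cluster 06, and 1 to 10 in each other pooled cluster). The median share of the 38 genes was then 5.71% in cluster 01, with a 25th to 75th percentile range of 4.49% to 7.17%. In cluster 06 the median was 1.03%, with a range of 0.55% to 1.75%, so these ranges did not meet. The medians of the 4 libraries were 3.55%, 3.16%, 3.19% and 3.29%, and these ranges of the libraries overlapped widely, together spanning 1.78% to 4.66%.

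**Figure D2:**
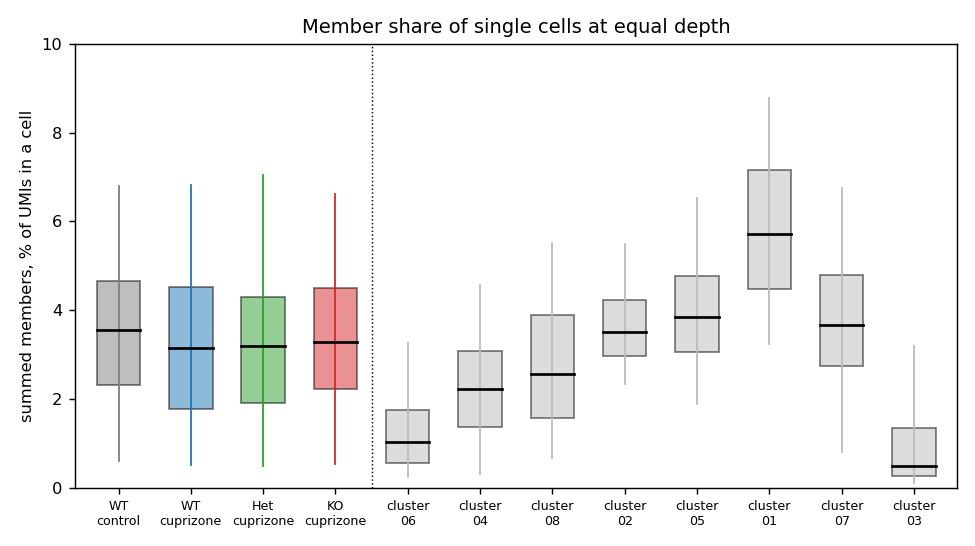
Summed UMIs of the 38 genes as a percent of a cell's UMIs (vertical axis) after thinning every cell to 2915 UMIs, by library over the 6 pooled clusters (left of the dotted line) and by cluster (right). Boxes span the 25th to 75th percentile of cells, black lines are medians and thin lines span the 5th to 95th percentile; the medians run from 3.16% to 3.55% over libraries and from 1.03% to 5.71% over the pooled clusters.

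Of the 38 genes, 29 had their highest level of the 6 pooled clusters in cluster 01, 4 in cluster 02, 3 in cluster 04 and 2 in cluster 08. The counts here take in Egr3 and Dusp5, with 12 and 67 UMIs in the pool, too few to order the clusters. Dusp5 had 1 UMI in cluster 06. Zfp36l1 was placed in cluster 02 at 702 CPM against 692 in cluster 01. Their lowest level was in cluster 06 for 35 and in cluster 04 for Rhob and Spry1; Egr3 was at 0 in clusters 04, 06 and 08. A gene was counted as higher or lower where its ratio was at least 1.5-fold, its counting interval excluded 1 and both sides together held at least 50 UMIs. In cluster 01 against the other 5, 20 of the 37 members with 50 UMIs were higher and 1 was lower, where 9.14% of all 10124 genes with 50 UMIs were higher and 5.6% were lower. The members' median log2 ratio was 0.71, against 0.13 over all of those genes. In cluster 06, 0 of 37 were higher and 35 were lower, where 3.85% of all genes were higher and 9.31% were lower. The median log2 ratio there was -1.62 for the members and 0.04 for all genes. The members were chosen with earlier results of these data known, and 19 of them entered the clustering. These counts and medians are therefore descriptions and not tests.

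The authors' gene file marks 19 of the 38 members as analysed in the clustering and 19 as not, among the latter Fos, Jun, Jund, Egr1, Dusp1, Atf3 and Nfkbia. In cluster 01, 10 of the 18 clustered members with 50 UMIs were higher, and so were 10 of the 19 that had not entered. The summed share was 1.83-fold (1.81 to 1.85) above the other clusters for the former and 1.90-fold (1.88 to 1.91) for the latter. In cluster 06 it was lower for both sets, at a ratio of 0.39 (0.38 to 0.39) and 0.34 (0.33 to 0.34). Genes left out of the clustering can still vary with genes that entered it, so this too is a description.

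**Figure D3:**
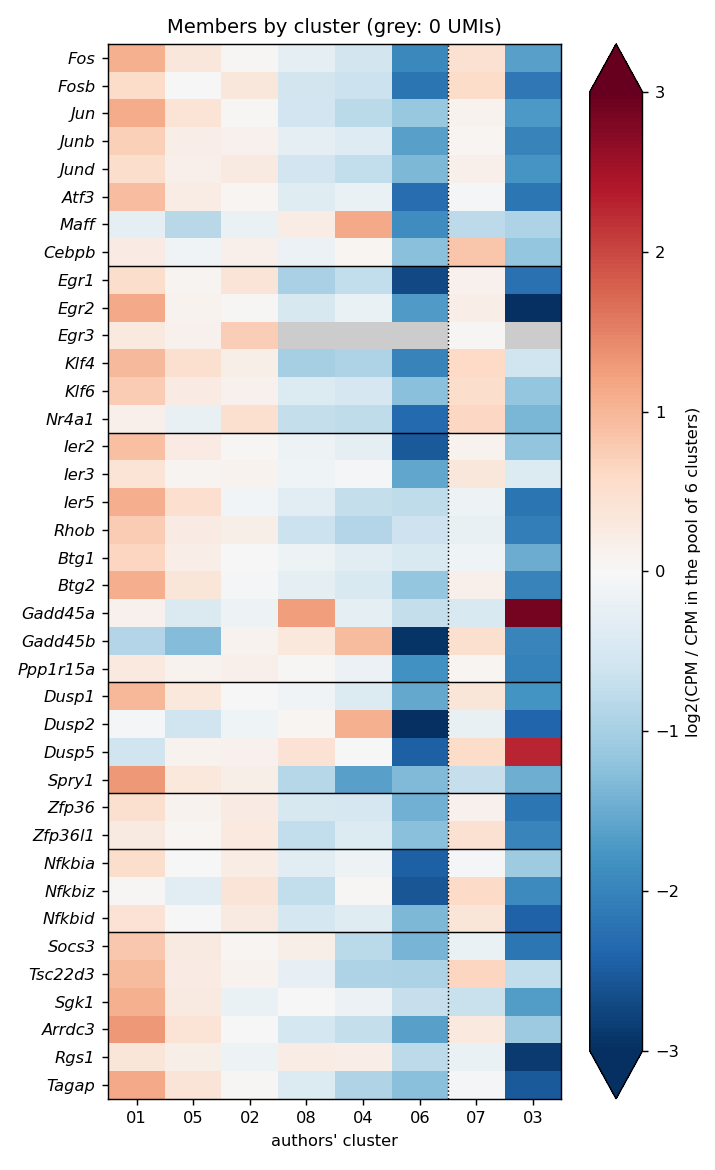
Level of each of the 38 genes in each cluster, as log2 of its CPM over that in the 6 pooled clusters together (red above, blue below, grey 0 UMIs), with genes grouped by role and clusters 07 and 03, outside the pool, right of the dotted line. Cluster 01 is red for most genes and cluster 06 blue for all those with UMIs there, while Maff, Gadd45b and Dusp2 are highest in cluster 04.

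The AP-1 factors bind DNA as pairs of Fos and Jun proteins. The 8 genes of the AP-1 and related group made up 3.01% of UMIs in cluster 01 and 0.60% in cluster 06. Fos (chr12:85473890-85477273, GRCm38) stood at 6546 CPM in cluster 01, 2127 to 3954 in clusters 02, 04, 05 and 08, and 815 in cluster 06, a level 8.04-fold (7.61 to 8.49) lower than in cluster 01. Within cluster 01 the Fos level was 6799, 6777, 6703 and 5979.6 CPM in the control-diet wild type, cuprizone wild type, heterozygote and knockout, a narrow range beside the gap between clusters. Jun (chr4:95049034-95052222, GRCm38) stood at 7605 CPM in cluster 01 and 1597 in cluster 06, a 4.76-fold difference (4.58 to 4.96). Junb, which competes with Jun for partners, was at 8263 and 1631 in the same clusters. Atf3, a stress-induced repressor of the same family, differed more, 1526 against 163, or 9.36-fold (8.31 to 10.6). Fosb was at 225 and 33.7 and Jund, a Jun protein that resting cells already make, at 4999 and 1372. Cebpb, a basic leucine zipper factor of macrophage activation, was at 958 and 338. Against the other 5 clusters, Fos, Fosb, Jun, Junb and Atf3 were higher in cluster 01, and all 8 genes of the group were lower in cluster 06.

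Among the zinc finger and nuclear receptor factors, Egr1, which MAP kinase signalling induces through serum response factor, fell from 971 CPM in cluster 01 to 103 in cluster 06, 9.46-fold (8.14 to 11.1) lower. Egr2 was at 122 and 17.1, and Klf4, a factor of myeloid differentiation, at 171 and 21.9. Klf6 was at 757 and 189. Nr4a1, an orphan nuclear receptor that restrains inflammatory genes, was at 281 and 50.2 but highest in cluster 02, at 353. Egr3 had 12 UMIs in the whole pool, of which 9 were in cluster 02 and 1 in cluster 01. It had 0 in clusters 04, 06 and 08, where a count of 0 allows up to 0.88, 1.60 and 1.33 CPM. Egr2, Klf4 and Klf6 were higher in cluster 01 than in the other 5 clusters, and the 5 genes of this group with 50 UMIs were lower in cluster 06.

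The feedback genes of MAP kinase signalling did not share 1 pattern. Dusp1, a nuclear phosphatase for p38 and JNK, was at 3623 CPM in cluster 01 and 629 in cluster 06, 5.76-fold (5.41 to 6.14) lower. Spry1, which dampens receptor tyrosine kinase signalling, was at 69.8 and 11.2. Both were higher in cluster 01 than in the other 5 clusters. Dusp2, a phosphatase for ERK, was instead highest in cluster 04, at 66.5, and stood at 31.0 in cluster 01 and 2.14 (4 UMIs) in cluster 06. Dusp5 had 67 UMIs in the pool, too few to order the clusters.

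The NF-kB feedback genes and the mRNA decay factors stood out less in cluster 01 and were still low in cluster 06. Nfkbia, which holds NF-kB in the cytoplasm, was at 2210 CPM in cluster 01, 1778 in cluster 02 and 282 in cluster 06, 7.84-fold (7.15 to 8.61) below cluster 01. Nfkbiz, an inducible nuclear partner of NF-kB, was highest in cluster 02, at 242, and stood at 192 in cluster 01 and 31.5 in cluster 06. Nfkbid was at 224 and 65.2 in clusters 01 and 06. Zfp36, which binds AU-rich mRNAs and triggers their decay, was at 2020.3 and 532 and its relative Zfp36l1 at 692 and 239. None of these 5 genes passed 1.5-fold in cluster 01 against the other 5 clusters, and all 5 were lower in cluster 06.

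Of the genes of cytokine, glucocorticoid and G protein signalling, 5 of 6 were higher in cluster 01, with a median log2 ratio of 1.11. Arrdc3, an arrestin-like adaptor, was at 224 CPM there against 82.2 in the other 5 clusters, a ratio of 2.73 (2.43 to 3.07). Tagap, a GTPase-activating protein, was at 521 against 216 and Sgk1, a kinase induced by glucocorticoids, at 1272 against 563. Tsc22d3, the glucocorticoid-induced leucine zipper, was at 554 against 268. Socs3, which inhibits cytokine receptors that signal through STAT3, was at 779 against 419.9. Rgs1, a brake on G protein signalling, was at 327 against 248 and did not pass.

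Of the remaining early genes, Ier2 and Ier5, nuclear regulators named for their immediate-early induction, were at 2155 and 2531 CPM in cluster 01 and 200 and 694 in cluster 06. Btg2 and Btg1, antiproliferative factors that recruit mRNA deadenylases, were at 4363 and 1198 in cluster 01 and 915 and 557 in cluster 06. Rhob, a short-lived small GTPase, was at 2599.7 and 985. These 5 were higher in cluster 01 than in the other 5 clusters. Ier3, a survival gene induced by NF-kB, was at 293 and 74.3, and Ppp1r15a, which reverses the stress block on translation, at 277 and 64.1; neither passed 1.5-fold. Gadd45b, a stress sensor of the p38 and JNK pathway, was the member that was lower in cluster 01, at 26.5 against 50.5 in the other 5 clusters (1.90-fold lower, 1.39 to 2.67). It was highest in cluster 04, at 93.8, and clusters 05 and 06 stood below cluster 01, at 19.7 and 6.41. In cluster 01 it was at 50.8 on control diet (20 UMIs) and at 23.5, 7.68 and 23.7 in the cuprizone wild type, heterozygote and knockout. On control diet clusters 02, 05 and 06 lay below that, at 41.2, 20.4 and 3.96. Clusters 04 and 08 lay above, at 176 (12 UMIs in 6 cells) and 129 (11 UMIs in 13 cells). The intervals of clusters 02 (31.4 to 53.0) and 08 (64.6 to 232) overlapped that of cluster 01 (31.0 to 78.4). Maff, a small Maf protein, was also highest in cluster 04, at 25.6, while Gadd45a was highest in cluster 08, at 29.2. In cluster 06 only Btg1, at 1.41-fold lower and so short of the limit, and Gadd45a, at 1.71-fold lower with an interval that reached 1, were not counted as lower among members with 50 UMIs.

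Other genes of the response were counted by the same rule. Of 48 further early inducible genes on a list, 44 were in the table and 38 had 50 UMIs in the cluster comparisons. In cluster 01, 19 of the 38 were higher, among them the factor Klf2 at 2498 against 1151 CPM, and Bhlhe40 and Phlda1 were lower. In cluster 06, 0 were higher and 26 were lower. Of 13 early-response chemokines and cytokines, 4 (Il1a, Il6, Ccl2 and Ccl3) were higher and 3 (Cxcl2, Csf1 and Ccl7) lower in cluster 01, and 11 were lower in cluster 06. Of 24 kinases and factors that act upstream of these genes, 2 (Mapk8 and Atf4) were higher and Rps6ka3 was lower in cluster 01, and 3 (Srf, Atf4 and Elk4) were lower in cluster 06. For these upstream genes alone the counts in cluster 01 are near the shares of all genes, 9.14% higher and 5.6% lower. In cluster 06 the share lower among all genes was 9.31%. Of 12 heat shock genes, 3 (Dnajb1, Hspa1a and Hspa8) were higher in cluster 01, and Dnajb1 was lower in cluster 06. The median log2 ratio of the 12 in cluster 01 was -0.08, and 6 of them had a ratio above 1.

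The members also varied together from cell to cell inside each library. For each gene, the thinned UMIs were correlated over the pooled cells with the sum of the other members, both as log2(1 + UMIs). These cells share a library, and each was thinned to the same depth. Of the 38 members, 31 had a mean of at least 0.1 UMI per thinned cell. Their median Pearson r was 0.36, 0.35, 0.36 and 0.38 in the control-diet wild type, cuprizone wild type, heterozygote and knockout, over 410, 604, 644 and 673 cells. Over the 3076 other genes above the same minimum the medians lay between -0.01 and 0.01. Those genes were not matched to the members in level. Among the members 19 had a mean of at least 1 UMI per thinned cell, and low counts keep r low. Taking for each gene the smallest of its 4 values, 28 of the 31 members (90.3%) exceeded 0.2, as did 23 of the 3076 other genes (0.75%).

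**Figure D4:**
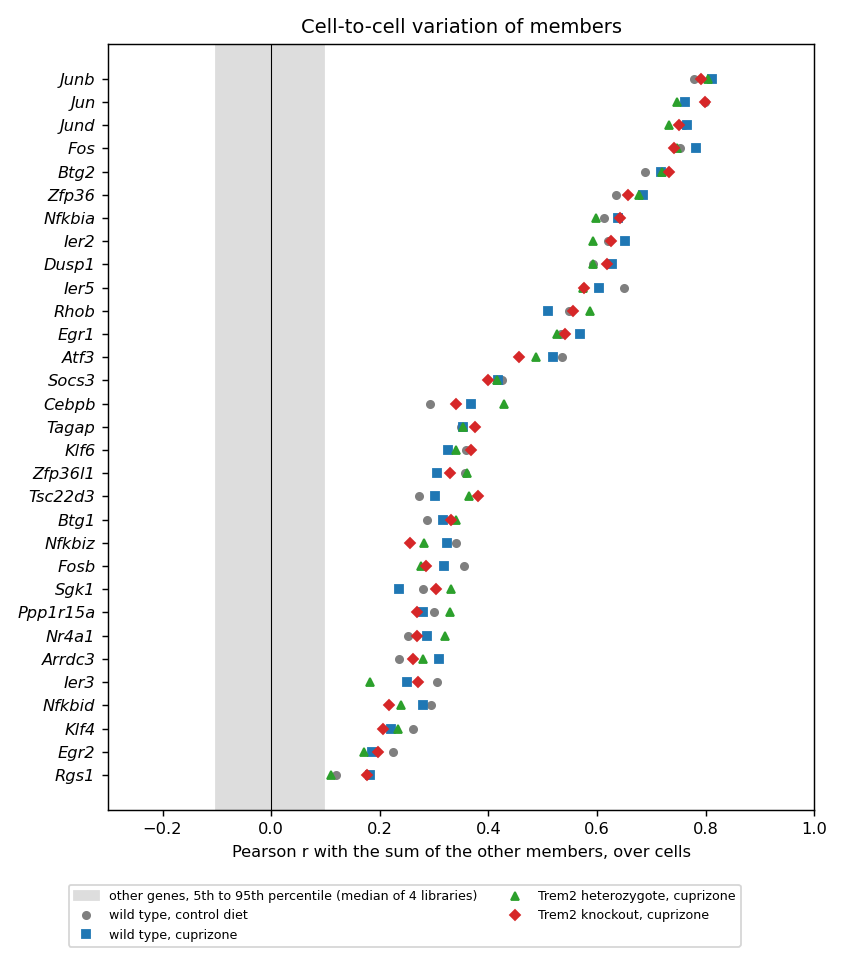
Pearson r over cells between each of 31 members and the sum of the other members (horizontal axis), 1 point per library; the grey band spans the 5th to 95th percentile of the 3076 other genes, taking the median of the 4 libraries for each. Junb, Jun, Jund and Fos lie above 0.7 in all 4 libraries, and Rgs1 is nearest to the band.

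The order of the members was alike in the 4 libraries. Junb had 0.78, 0.81, 0.80 and 0.79, Jun 0.80, 0.76, 0.75 and 0.80, Fos 0.75, 0.78, 0.75 and 0.74, and Jund 0.76, 0.76, 0.73 and 0.75. Btg2 and Zfp36 followed, with smallest values of 0.69 and 0.63, then Nfkbia (0.60), Dusp1 (0.59), Ier2 (0.59), Ier5 (0.57), Egr1 (0.53), Rhob (0.51) and Atf3 (0.46). At the other end were Klf4 (0.21), Ier3 (0.18), Egr2 (0.17) and Rgs1 (0.11); for genes with few UMIs per cell, sampling alone keeps r low. Among the 19 members with a mean of at least 1 UMI per thinned cell there were 171 pairs, with a median r of 0.30 to 0.31 in each library, and Jun with Jund was the closest pair in all 4 (0.66 to 0.73). Within single clusters the median pair r was lower, 0.10 in cluster 01, 0.09 in cluster 02 and 0.14 in cluster 05, but 0.21 in cluster 06, 0.26 in cluster 08 and 0.31 in cluster 04. The members' share of a cell correlated with the share of ribosomal protein transcripts at -0.38 to -0.17, with that of mitochondrial transcripts at -0.16 to -0.07 and with log2 UMIs before thinning at 0.08 to 0.16. With heat shock UMIs it correlated at 0.06 to 0.27.

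Among the 10 genes outside the list whose smallest r was highest were H3f3b (0.52), Cd83 (0.43), Klf2 (0.38), Glul (0.36), Ccl4 (0.32), Zfp36l2 (0.32), Cited2 (0.28), Ccl3 (0.28) and Kctd12 (0.27). H3f3b encodes a replacement histone. Cd83 is a surface protein of activated antigen-presenting cells, and Ccl3 and Ccl4 are chemokines that microglia release early after activation. Of the 17 further early inducible genes deep enough to be measured, 5 exceeded 0.2 in every library.

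Because the members moved together, their promoters were searched for the elements through which early genes are classically induced. A RefSeq promoter window of GRCm38.p6, 250 bases before to 50 after the gene's start, was at hand for 33 of the 38; Egr1, Egr3, Ier2, Nfkbiz and Rgs1 were not searched. Both strands were read, and the same was done for 27025 genes, which were not limited to genes counted in these cells. A gene was counted where any of its windows held the element. Bases farther upstream than 250 were not searched. A CArG box, bound by serum response factor, was found for 3 of the 33 genes (9.09%), Zfp36, Egr2 and Dusp5, and for 1.81% of all. The palindromic CRE, TGACGTCA, bound by CREB and ATF proteins, was found for 5 (15.2%), Btg2, Dusp1, Maff, Nfkbid and Ppp1r15a, and for 2.03% of all. An NF-kB site was found for 9 (27.3%), including Nfkbia, Ier3 and Fos, and for 9.55% of all. The AP-1 site TGAGTCA was found for 0 of the 33 genes and for 5.95% of all. A match is a description of these letters and not a site shown to be bound.

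The stretches that hold these elements are shown for 4 of the 8 members that move most closely with the rest (Btg2, Zfp36, Nfkbia and Dusp1). For contrast, stretches are also shown for Egr2 and Ier3, which moved less closely with the rest, and for Dusp5 and Maff, which had few UMIs. Each is read 5′ to 3′ on the gene's strand, upstream of its start, with the element in capitals.
Zfp36, CArG box, chr7:28379252-28379311, minus strand: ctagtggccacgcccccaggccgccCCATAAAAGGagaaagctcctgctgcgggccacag
Egr2, CArG box, chr10:67537469-67537528, plus strand: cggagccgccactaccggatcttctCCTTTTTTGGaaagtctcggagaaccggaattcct
Dusp5, 2 adjoining CArG boxes, chr19:53529038-53529107, plus strand: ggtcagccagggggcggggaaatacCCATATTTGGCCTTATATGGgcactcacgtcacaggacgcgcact
Btg2, CRE, chr1:134079289-134079346, minus strand: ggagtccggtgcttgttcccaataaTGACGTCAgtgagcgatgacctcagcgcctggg
Dusp1, CRE, chr17:26508583-26508640, minus strand: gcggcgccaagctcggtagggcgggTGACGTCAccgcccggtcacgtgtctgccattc
Maff, CRE, chr15:79347466-79347519, plus strand: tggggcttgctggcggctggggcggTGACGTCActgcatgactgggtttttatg
Nfkbia, NF-kB site, chr12:55492648-55492701, minus strand: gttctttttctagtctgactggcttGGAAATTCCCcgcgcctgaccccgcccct
Ier3, NF-kB site, chr17:35821596-35821655, plus strand: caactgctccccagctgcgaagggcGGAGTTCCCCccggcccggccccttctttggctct

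Members with the same element could be highest in different clusters. Dusp1 and Btg2 were highest in cluster 01 and Maff, with the same CRE, in cluster 04.

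Between libraries most members lay close together. Of the 34 members with at least 400 UMIs in the pool, the highest library exceeded the lowest by a median of 1.28-fold, and by less than 1.5-fold for 29. Counting intervals were at most 6.32% above the value for a member with 1000 or more UMIs in a library and at most 24.5%, for Dusp2, among all 34. Levels are given below in CPM, always in the order control-diet wild type, cuprizone wild type, heterozygote and knockout.

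**Figure D5:**
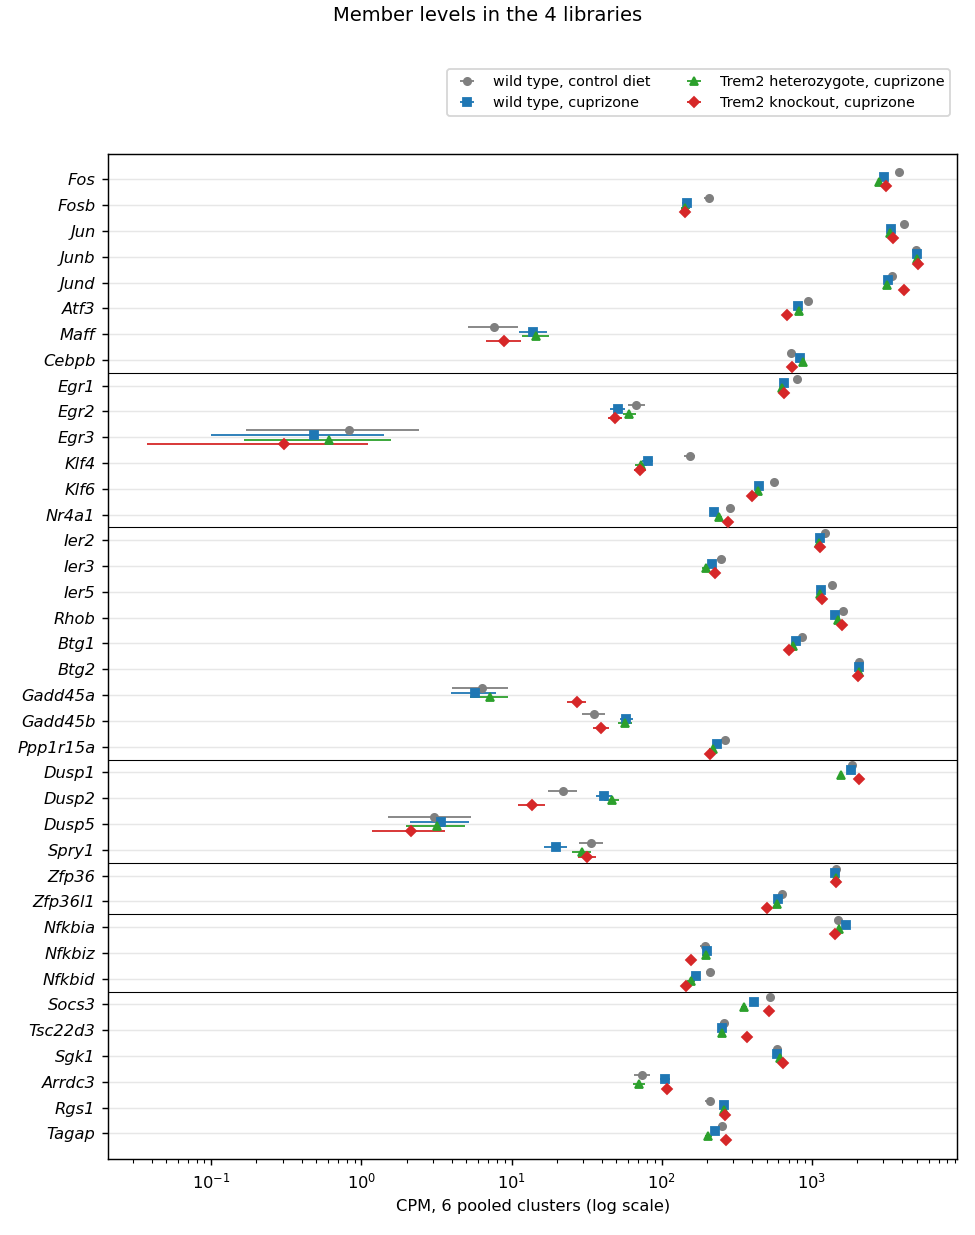
CPM over the 6 pooled clusters (horizontal log axis) for each of the 38 genes in the 4 libraries, with exact 95% Poisson intervals for counting error; lines separate the roles. Most genes have 4 points almost on top of each other, while Gadd45a is far higher in the knockout (27.2) than in the other 3 (5.67 to 7.17), Dusp2 is lowest in the knockout (13.7) and Klf4 is highest on control diet (153).

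Among the AP-1 genes, Fos stood at 3784, 3034, 2788 and 3109, highest on control diet. Jun stood at 4107, 3389, 3305 and 3469, with the same library on top. Junb, at 4920.5, 5018, 4986 and 5112, hardly moved. Jund, at 3418, 3218, 3187 and 4096, was highest in the knockout, 1.2727-fold (1.2495 to 1.2964) above the cuprizone wild type and higher there in each of the 6 pooled clusters. Fosb, at 206, 147, 144 and 143, and Atf3, at 945, 804, 822 and 688, were highest on control diet. Cebpb, at 725, 840.3, 869 and 739.8, was lowest there.

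The zinc finger factors were highest in the control-diet library. Egr1 stood at 797, 655, 635 and 652, and Egr2 at 67.9, 50.8, 60.9 and 49.0. Klf4 stood at 153, 80.8, 73.3 and 71.7, which sets that library apart from the 3 on cuprizone. Klf6 stood at 559.9, 444, 438 and 397. Nr4a1, at 283, 223, 240.2 and 276, was high in both the control-diet wild type and the knockout. Egr3 lay between 0.31 and 0.82.

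Of the MAP kinase feedback genes, Dusp1 stood at 1840.1, 1831, 1576 and 2060.2. Dusp2 stood at 22.0, 41.5, 46.5 and 13.7, high in the cuprizone wild type and the heterozygote and low in the other 2 libraries. Spry1, at 34.1, 19.8, 29.3 and 31.9, was low in the cuprizone wild type alone. Dusp5 lay between 2.15 and 3.40. The mRNA decay factor Zfp36, at 1441, 1424, 1451 and 1446, was the steadiest of the members named here, and Zfp36l1 stood at 629, 591, 585 and 505. The NF-kB feedback genes Nfkbia, at 1500.4, 1679, 1525 and 1428, Nfkbiz, at 195, 202, 196 and 157, and Nfkbid, at 211, 168, 157 and 146, were each lowest in the knockout.

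In the signalling group Socs3 stood at 523, 415, 355 and 518, high on control diet and in the knockout. Tsc22d3 stood at 259.7, 254, 253 and 369.6, with the knockout apart from the rest. It was 1.45-fold (1.36 to 1.55) above the cuprizone wild type there, and highest in the knockout in each of the 6 pooled clusters. Arrdc3, at 74.2, 106, 71.1 and 109, was high in the cuprizone wild type and the knockout. Sgk1 stood at 588, 583, 617 and 644, Rgs1 at 209, 261, 261 and 263, and Tagap at 252, 226, 205 and 269.7. Of these 3 only Rgs1 had its lowest level on control diet.

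The other early genes were mostly flat. Ier2 stood at 1229, 1142, 1122 and 1129, Ier3 at 249.6, 217, 197 and 228, and Ier5 at 1364, 1146, 1142 and 1162. All 3 were highest on control diet. Btg2, at 2071, 2076, 2057 and 2026, hardly moved, while Btg1 stood at 856, 783, 751 and 709.98. Rhob stood at 1627, 1425, 1496 and 1583, and Ppp1r15a, the phosphatase subunit, at 265, 232, 219 and 209. Gadd45b stood at 35.2, 58.3, 56.9 and 39.5, high in the cuprizone wild type and the heterozygote as Dusp2 was. The 2 members left, both with few UMIs, were Gadd45a, at 6.32, 5.67, 7.17 and 27.2, and Maff, at 7.70, 13.9, 14.5 and 8.90. Gadd45a stood out in the knockout, and Maff followed the pattern of Dusp2.

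On cuprizone against control diet in wild-type mice, 36 members had 50 UMIs over both libraries, of which 3 were higher and 2 lower. Over all 8819 genes with 50 UMIs, 2.59% were higher and 4.44% were lower. Higher were Dusp2 (1.89-fold, 1.46 to 2.45), Maff (1.81-fold, 1.17 to 2.88) and Gadd45b (1.66-fold, 1.35 to 2.04). Lower were Klf4 (1.90-fold, 1.68 to 2.15) and Spry1 (1.73-fold, 1.33 to 2.23). The median log2 ratio was -0.14 for the members and -0.11 for all genes, and the members' summed share was 0.93 of that on control diet (0.92 to 0.93). With edgeR's TMM factors in place of total UMIs these 2 medians were -0.03 and 0.01 and the summed ratio was 1.004. Genes past the limit were then higher in 63.2% of cases in place of 36.8%. The same 5 members passed with TMM, and Arrdc3 was added as higher.

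Cells of the 4 libraries were spread unevenly over the clusters. Cluster 04, where Dusp2, Gadd45b and Maff were highest and the summed share was low, held 6 cells of the control-diet wild type, 122 of the cuprizone wild type, 150 of the heterozygote and 13 of the knockout. Without cluster 04 the summed share of the cuprizone wild type was 1.003 of that on control diet. Dusp2 and Gadd45b still passed there (1.76-fold, 1.33 to 2.37, and 1.52-fold, 1.21 to 1.91), and so did Klf4 (1.76-fold lower, 1.55 to 2.01). Maff (1.39-fold, 0.86 to 2.29) and Spry1 (1.47-fold lower, 1.13 to 1.91) no longer did, and Arrdc3 passed as higher. With every deposited cell in place of the pool, Gadd45b also missed the limit (1.37-fold, 1.16 to 1.63). Klf4 was lower on cuprizone in each pooled cluster: in cluster 05 it stood at 74.6 against 189 CPM, 2.53-fold lower (1.88 to 3.45), in cluster 02 at 100.4 against 154, 1.54-fold lower (1.28 to 1.84), and in cluster 01 at 170.4 against 216, where the interval of the difference reached past 1. The genes that were higher in the pool were not higher in every cluster. Gadd45b was 1.54-fold higher on cuprizone in cluster 02 (1.14 to 2.101), but it was 2.16-fold, 1.98-fold and 2.03-fold lower in clusters 01, 04 and 08, with intervals that included 1. Dusp2 was 2.46-fold higher in cluster 01 (1.01 to 6.58) and 1.48-fold in cluster 02 (0.99 to 2.25), level in cluster 05 at 19.6 against 19.5 CPM, and 2.27-fold lower in cluster 04 (1.05 to 4.36), where control diet gave 10 UMIs. Spry1, lower in the pool, was 2.45-fold lower in cluster 05 (1.39 to 4.57) and at 35.3 against 38.1 CPM in cluster 01. Within clusters the summed share on cuprizone was 1.11 of that on control diet in cluster 01 (1.09 to 1.13), 1.02 in cluster 02 (1.01 to 1.03), 1.01 in cluster 05 (0.99 to 1.02) 0.91 in cluster 06 (0.88 to 0.94), 0.91 in cluster 04 and 1.10 in cluster 08.

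Between the knockout and the wild type on cuprizone, 2 of 36 members were higher and 2 lower, where 1.64% of all 9189 genes with 50 UMIs were higher and 3.86% were lower. This comparison and the one above share the cuprizone wild-type library, so a chance deviation of that library enters both, in opposite directions. Gadd45a (chr6:67035096-67037457, GRCm38), a stress sensor that binds and activates a kinase upstream of p38, was 4.79-fold (3.32 to 7.10) higher in the knockout. It was above the cuprizone wild type in each of the 6 pooled clusters: at 24.0 against 5.13 CPM in cluster 02, 47.3 against 6.59 in cluster 08, 28.5 against 5.88 in cluster 01 and 18.4 against 6.55 in cluster 05. The interval of the ratio included 1 in cluster 05, with a lower bound of 0.94, and in clusters 04 and 06, which held 13 and 6 UMIs over both libraries and had lower bounds of 0.52 and 0.56. Spry1 was 1.62-fold (1.29 to 2.04) higher, but 1.38-fold (1.09 to 1.75) without cluster 04, short of the limit. Without cluster 08 Tsc22d3 passed as higher and Gadd45b as lower.

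Dusp2 (chr2:127336159-127338376, GRCm38) was 3.03-fold (2.38 to 3.91) lower in the knockout and 2.51-fold (1.92 to 3.28) lower without cluster 04. In cluster 08 it stood at 6.30 against 83.5 CPM, 13.2-fold lower (6.08 to 32.9), with 8 and 38 UMIs. In cluster 02 it stood at 19.4 against 34.4, 1.77-fold lower (1.28 to 2.46). Maff was 1.56-fold (1.11 to 2.22) lower in the pool and 1.20-fold (0.81 to 1.77) without cluster 04. The median log2 ratio was 0.00 both for members and for all genes. The summed share in the knockout was 1.03 of the wild type (1.03 to 1.04), and 0.96 without cluster 04. Within clusters it was 0.95 in cluster 01 (0.93 to 0.97), 0.96 in cluster 02 (0.95 to 0.97), 1.07 in cluster 05 (1.06 to 1.09) 1.05 in cluster 06 (1.02 to 1.09), 0.96 in cluster 04 and 0.91 in cluster 08.

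In the heterozygote against the wild type on cuprizone, 0 of 36 members were higher and 0 lower, where 1.32% of all 9248 genes with 50 UMIs were higher and 1.17% were lower. The members nearest to the limit were Arrdc3, at 71.1 against 106 CPM (0.67, 0.60 to 0.76), and Spry1, at 29.3 against 19.8 (1.48, 1.18 to 1.88). Without cluster 04 Spry1 passed. Its gap was widest in cluster 01, at 130.6 against 35.3 CPM (51 and 12 UMIs). It stood at 32.8 against 26.0 in cluster 02 and 29.0 against 21.0 in cluster 05, and was lower in cluster 08, at 8.91 against 17.6. The median log2 ratio was -0.02 for members and -0.01 for all genes, and the summed share was 0.97 of the wild type (0.97 to 0.98). This comparison uses the same wild-type library as the other 2.

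Of 36 further early inducible genes with 50 UMIs, 4 were higher on cuprizone than on control diet: Bhlhe40 (8.74 against 1.65 CPM), Phlda1 (36.8 against 7.97), Ptgs2 (8.42 against 1.92) and Id2 (232 against 129). Klf2 was lower, at 1077 against 1852. Over all genes with 50 UMIs, the shares higher and lower were 2.59% and 4.44% on cuprizone and 1.64% and 3.86% in the knockout. In the heterozygote they were 1.32% and 1.17%. In the knockout against the wild type, 0 of 36 were higher and 8 lower, the largest ratios being those of Bhlhe40 (0.77 against 8.74), Ptgs2 (1.69 against 8.42), Phlda1 (9.52 against 36.8) and Plk2 (3.99 against 7.77). In the heterozygote 0 of 37 were higher and Ptgs2 was lower. Of 13 early-response chemokines and cytokines, 5 were higher and 2 lower on cuprizone, 0 were higher and 7 lower in the knockout, and 0 were higher and 2 lower in the heterozygote. Cxcl2, a neutrophil attractant, stood at 15.4 on control diet, 49.4 in the cuprizone wild type and 5.53 in the knockout. The diet and knockout comparisons share the cuprizone wild-type library, and cluster 04 held 6, 122 and 13 cells of these libraries. The genes of these lists were not compared between libraries within clusters or without cluster 04, so the part of the cell mix was not tested. Of the 23 upstream kinases and factors measured, Mkl2 alone was lower on cuprizone, and 0 differed in the other 2 comparisons. Of 11 heat shock genes, Dnajb1 and Hspa1b were lower on cuprizone and Hspa1a and Hspa1b were higher in the heterozygote, where Hspa1a stood at 230.4 against 111 CPM.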

How the data were processed

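The deposited values are whole UMI counts per gene and cell; per the submitters' processing notes the authors used Cell Ranger 2.1.1 on mm10. Notes deposited beside the table say that low-quality cells had been dropped and the 4 libraries combined; the authors assigned each cell to 1 of 8 clusters from the genes they marked as analysed. The sources used here do not give the cell filter, the gene annotation or the treatment of doublets, and no doublet caller was run. Every gene in the table has a UMI in at least 8 cells, and 0 columns were left without a sample.

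UMIs were summed per library or cluster and divided by the total (CPM). Ratios carry exact conditional binomial (Clopper-Pearson) 95% intervals and levels exact Poisson intervals. PCR duplicates are collapsed by the UMIs, and intervals cover counting error alone. A member was named in every library if it had at least 400 UMIs in the pool; the others are given by range, and by value where past the limit of 1.5-fold and 50 UMIs. Marker lists of 11 cell types were summed; those of the T or NK cell, B cell, choroid plexus, endothelial, astrocyte, oligodendrocyte, neuron, monocyte and border-associated macrophage lists are in the closing section. TMM factors came from edgeR 4.0.16 (R 4.3.3); other steps used Python 3.11.15 with numpy 2.4.6, scipy 1.17.1, pandas 2.3.3 and matplotlib 3.10.9. Of the 10 genes outside the list that varied most like the members, 9 are named and the other is not reported here. The interval and call steps were tested on simulated data. The members and lists were chosen with earlier results of these data known. Coordinates are from GENCODE on GRCm38, matched by gene ID.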

Additional observations from a re-analysis of the deposited data

How the results depend on the processing

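With 1 library per group no replicate could be left out. No paired analysis was possible because each group holds 1 library and the result comes from no test. The members' summed ratio stayed between 0.913 and 1.08 under the settings run, so its direction is not firm. Cuprizone against control diet turned from 0.93 to 1.004 with TMM scaling, 1.03 as the mean of the 6 cluster values and 1.003 without cluster 04; it was 0.913 over every deposited cell, 0.941 without cluster 01, 0.936 as the mean of per-cell shares and 0.918 in thinned cells. The knockout turned from 1.03 to 0.978 as the mean of cluster values and 0.956 without cluster 04; it was 1.06 over every cell, 1.08 without cluster 08, 1.04 in thinned cells and 1.001 without Junb, Jun and Fos. The heterozygote turned from 0.97 to 1.01 per cell and 1.007 in thinned cells; it was 0.981 over every cell, 0.967 without cluster 01, 0.982 as the mean of cluster values and 0.966 without those 3 genes. Members past the limit changed from 2 to 8 lower at a lower fold limit and to 1 lower without cluster 04 on cuprizone. In the knockout 4 were higher and 4 lower at that limit, 1 higher and 1 lower without cluster 04, and 1 lower with a minimum of 200 UMIs. In the heterozygote 1 was higher without cluster 08, 1 without cluster 04 (Spry1 both times), and 1 was higher and 1 lower at that limit. The cluster 01 ratio stayed above 1.5 in every library: per cell 1.87, 2.19, 2.17 and 1.98 in the order of the report, thinned 1.72, 2.095, 2.15 and 1.92, and without mitochondrial and ribosomal protein genes 1.59, 1.82, 1.87 and 1.69. With clusters 03 and 07 added to the rest it was 1.63 on control diet and 1.76 in the knockout, and without Junb, Jun and Fos 1.73 on control diet. The leaving out of cluster 04, of shared barcodes and of cells with neutrophil markers, and the use of every cell for single genes, were chosen after seeing the data. The cause was not tested. For single members over the 3 library comparisons, TMM scaling moved 20 of 108 ratios by more than their interval, using every cell 16 and leaving out cluster 04 42, with 0 past the limit turned in sign. Depth limits Egr3 and Dusp5, with 12 and 67 UMIs in the pool.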

Other observations

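Markers of other cell types were summed over the pooled clusters in CPM, in the order of the report. Border-associated macrophage markers stood at 357, 419, 422 and 309, monocyte markers at 11.8, 27.4, 44.6 and 29.9, and T or NK cell markers at 22.0, 63.6, 25.9 and 62.9. B cell markers stood at 30.2, 26.6, 22.4 and 31.0, choroid plexus markers at 183, 209, 134 and 108, and endothelial markers at 20.1, 31.6, 30.8 and 16.3. Astrocyte markers stood at 4.4, 1.6, 3.5 and 3.4, oligodendrocyte markers at 55.8, 41.9, 27.3 and 51.0, and neuron markers at 1.4, 2.1, 2.0 and 1.8.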
